A study of Mus musculus with 8 samples.

Results

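In mouse Nrip1 KO and control myotubes, H3K27ac was profiled by CUT&RUN, which releases the DNA under an antibody with a tethered nuclease, and 905 regions between genes that carried more of the mark in the KO are described here. They were chosen by the list the authors deposited as increased 2-fold or more in Nrip1 KO over control (Ctrl) myotubes, and then by position. A member lay on chromosomes 1 to 19 or X, chromosomes 4, 7, 10 and 16 left out, with its centre over 1 kb from every transcript start of the GENCODE M21 annotation and outside every gene body. These regions were 905 of 11180 differential regions in both lists, of 3917 increased regions, and of 2358 increased regions on the 16 chromosomes kept. Of all 7803 differential regions on these chromosomes, 30.2% were increased. The chromosomes left out departed widely from that level: increased regions made up 97.7% of differential regions on chromosome 7, 69.1% on chromosome 10, 7.53% on chromosome 4 and 7.8% on chromosome 16.

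The study profiled 8 libraries in 4 groups of 2, which crossed the genotype of the myotubes (Nrip1KO or Ctrl) with the antibody used (H3K27ac or a control IgG). Satellite cells, the stem cells of muscle, came from gastrocnemius muscle and were differentiated for 4 days, and nuclei were pooled before they were divided between antibodies. The study describes its striated-muscle Nrip1-/- line as carrying a Cre driven by the muscle creatine kinase promoter, compared with littermates; the labels give only the genotype and no age or sex. The lists hold positions without a value per library, so neither depth nor fold, replicate spread or IgG background can be given for any region. For the same reason the members' direction is a description of the list that chose them. No test was applied, shares carry 95% Wilson intervals and medians carry order-statistic intervals, both of which cover counting error over regions only. In such bulk cultures, fewer cells carrying a mark and less of the mark per cell cannot be told apart.

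Acetylation of lysine 27 on histone H3 is laid down by the acetyltransferases p300 and CBP and marks active promoters and enhancers. Enhancers between genes can act on promoters far away, and the nearest gene is often not the one they regulate. RIP140, the protein encoded by Nrip1, has no DNA-binding domain of its own and is brought to chromatin by nuclear receptors such as the estrogen-related receptors and the PPARs, where it mostly recruits repressors. In muscle cells, E-boxes bound by the MyoD family and sites bound by MEF2 are typical of enhancers used on differentiation, while AP-1 and TEAD sites are found in enhancers of many cell types, myoblasts included.

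The sequences of 6 members are printed first, 300 bases each from mm10 on the plus strand, because the text returns to them. They are the region upstream of Wnt16, the region with the most AP-1 and TEAD matches, and the widest region. That with the most matches lay 26.6 kb downstream of the nearest transcript start of Insig2, a gene of sterol regulation. The others are the regions of the 3 leading genes Nt5e, Cpeb2 and Inhba with the most such matches. Capitals mark letters that match a consensus on either strand: AP-1 (TGACTCA or TGAGTCA), TEAD (ACATTCC or GCATTCC), the E-box CAGCTG and RUNX (TGTGGTC or TGTGGTT). The Insig2 window held 2 adjoining TEAD matches and 1 AP-1 match, the Cpeb2 window held 2 AP-1 matches, the Nt5e window held 1 TEAD and 1 E-box match, and the Inhba window held 1 AP-1 and 1 E-box match. The window upstream of Wnt16 and that of the widest region each held a RUNX match alone. The window of the widest region and that of Inhba were rich in A and T, with a GC content of 27% and 28.7%.
Wnt16 (chr6:22283184-22283483): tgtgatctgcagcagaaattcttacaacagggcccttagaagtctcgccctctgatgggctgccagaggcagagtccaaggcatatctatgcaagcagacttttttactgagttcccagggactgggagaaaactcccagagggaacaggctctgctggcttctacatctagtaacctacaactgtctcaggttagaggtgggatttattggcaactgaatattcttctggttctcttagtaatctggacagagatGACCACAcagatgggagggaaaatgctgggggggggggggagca
Insig2 (chr1:121280474-121280773): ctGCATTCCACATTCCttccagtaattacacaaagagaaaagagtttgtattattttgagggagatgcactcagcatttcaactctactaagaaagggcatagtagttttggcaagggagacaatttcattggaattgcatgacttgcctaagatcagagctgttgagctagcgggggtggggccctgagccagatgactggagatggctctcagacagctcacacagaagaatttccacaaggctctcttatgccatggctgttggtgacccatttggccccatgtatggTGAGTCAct
4932411N23Rik (chrX:126774461-126774760): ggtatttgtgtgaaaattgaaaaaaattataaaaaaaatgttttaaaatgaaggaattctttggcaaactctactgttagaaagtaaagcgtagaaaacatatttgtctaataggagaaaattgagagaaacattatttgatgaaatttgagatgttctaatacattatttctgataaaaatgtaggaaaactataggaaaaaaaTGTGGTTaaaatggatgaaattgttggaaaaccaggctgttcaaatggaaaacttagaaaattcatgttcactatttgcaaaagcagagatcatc
Nt5e (chr9:88198811-88199110): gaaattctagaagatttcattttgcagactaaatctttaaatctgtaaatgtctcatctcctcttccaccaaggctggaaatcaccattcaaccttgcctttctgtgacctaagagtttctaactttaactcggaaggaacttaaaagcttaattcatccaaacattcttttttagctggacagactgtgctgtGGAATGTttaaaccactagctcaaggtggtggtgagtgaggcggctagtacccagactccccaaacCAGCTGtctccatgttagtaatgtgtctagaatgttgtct
Cpeb2 (chr5:42885822-42886121): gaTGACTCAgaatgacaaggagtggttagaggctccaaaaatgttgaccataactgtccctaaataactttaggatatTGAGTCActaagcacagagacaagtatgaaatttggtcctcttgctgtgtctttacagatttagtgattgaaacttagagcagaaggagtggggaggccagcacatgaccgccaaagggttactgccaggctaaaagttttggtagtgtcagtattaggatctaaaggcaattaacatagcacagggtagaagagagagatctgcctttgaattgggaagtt
Inhba (chr13:16176660-16176959): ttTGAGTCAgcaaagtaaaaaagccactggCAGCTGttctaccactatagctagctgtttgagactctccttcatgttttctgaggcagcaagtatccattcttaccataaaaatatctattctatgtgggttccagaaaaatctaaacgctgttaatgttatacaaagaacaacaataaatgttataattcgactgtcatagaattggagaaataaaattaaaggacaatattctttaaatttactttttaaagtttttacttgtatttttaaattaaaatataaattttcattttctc

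Shorter stretches of mm10 show how AP-1 and TEAD letters were placed in other members near leading genes, with 10 bases on each side of the match in capitals. They are given because both consensus sequences were found in a larger share of the increased than of the decreased intergenic regions, as described further on. The pair of sites near Sox9 lie in the same region, 135 kb downstream of the start, and the AP-1 and TEAD sites near Rasa1 lie in 3 neighbouring regions.
Sox9 chr11:112916740-112916766: catgaccatgTGACTCAaattttgctc
Sox9 chr11:112917039-112917065: ctatggatctTGAGTCActgttgtttg
Rasa1 chr13:85359435-85359461: tttgaaggtaTGACTCActgatagagc
Rasa1 chr13:85398890-85398916: gcaacatataTGACTCAcagctctcac
Rasa1 chr13:85430640-85430666: aaccacccaaACATTCCtgagtaattg
Sox11 chr12:27352950-27352976: tttaacattgTGACTCAgagtctccaa
Adgrl4 chr3:151383768-151383794: ttgagagctcTGACTCAtagcagagag
March11 chr15:26268015-26268041: tactacactcTGACTCAaaccaaacag
March11 chr15:26307375-26307401: gtgtgagaggACATTCCtggaagctgt
Cpeb2 chr5:43114106-43114132: agtttcttggTGACTCAgactgcctac

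The increased regions lay far from genes. Their median distance to the nearest protein-coding start was 71.6 kb (95% interval 61.6 to 80.2, n = 905), with quartiles of 24.7 and 205 kb, compared with 39.2 kb (35.8 to 42.1) for the 1827 decreased intergenic regions on the same chromosomes. Intergenic sequence as a whole lay farther out still, with a median of 114 kb over 105522 windows of 500 bp placed every 10 kb by the same rule. More than 100 kb separated 377 of the increased regions (41.7%, 38.5 to 44.9) from any protein-coding start, and 508 of the decreased ones (27.8%, 25.8 to 29.9). More than 500 kb did so for 70 increased (7.73%) and 81 decreased regions (4.43%). At the other end, 106 increased regions (11.7%) lay within 10 kb of a coding start, compared with 358 decreased ones (19.6%). The stretch between the flanking coding genes had a median length of 328 kb (277 to 373) around increased and 153 kb (140 to 165) around decreased regions, and it was over 1 Mb for 176 (19.4%) and 208 (11.4%). Regions were narrow, with a median width of 686 bp (645 to 756) against 806 bp (788 to 837) for the decreased ones, and 311 of the increased regions (34.4%) had the shortest width in the lists, 501 bp.

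Intergenic positions made up 38.4% of increased regions on these chromosomes and 33.6% of decreased ones. Put the other way, 33.1% of the 2732 intergenic differential regions were increased (31.4 to 34.9), against the 30.2% of all differential regions given above, 27.5% of those inside gene bodies and 34.0% of those within 1 kb of a start. The intervals of the intergenic and gene-body shares did not overlap, but they cover counting error over regions only. By chromosome the intergenic share ran from 14.2% on chromosome 11 to 57.0% on chromosome 18. Inside the intergenic class, the share also ranged widely with distance and base composition. It was 22.4% (17.4 to 28.5) at 1 to 5 kb from a coding start, 28.9% (26.1 to 31.8) at 10 to 50 kb, 41.8% (38.3 to 45.4) at 100 to 500 kb and 46.4% (38.6 to 54.3) beyond 500 kb. By GC content it fell from 89.6% (43 of 48 regions) at up to 35% GC to 67.8% at 35 to 40%, 40.5% at 40 to 45%, 22.8% at 45 to 50% and 10.6% (50 of 470) at 50 to 55%.

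Distance and GC content were then combined. Among intergenic regions with at most 45% GC, the increased share ran from 40.4% (28.6 to 53.3) at 1 to 5 kb to 53.9% (46.8 to 60.8) at 50 to 100 kb and 48.1% (39.7 to 56.6) beyond 500 kb. Among those over 45% GC, it ran from 15.9% (11.0 to 22.5) at 1 to 5 kb to 22.1% (17.5 to 27.4) at 100 to 500 kb, and the 20 regions beyond 500 kb gave 35% (18.1 to 56.7). Within each GC class the intervals of the first and last distance class overlapped, whereas the GC classes stood apart at every distance up to 500 kb. Whether base composition affected recovery differently in KO and Ctrl libraries was not tested, because no library values were used here.

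**Figure D1:**
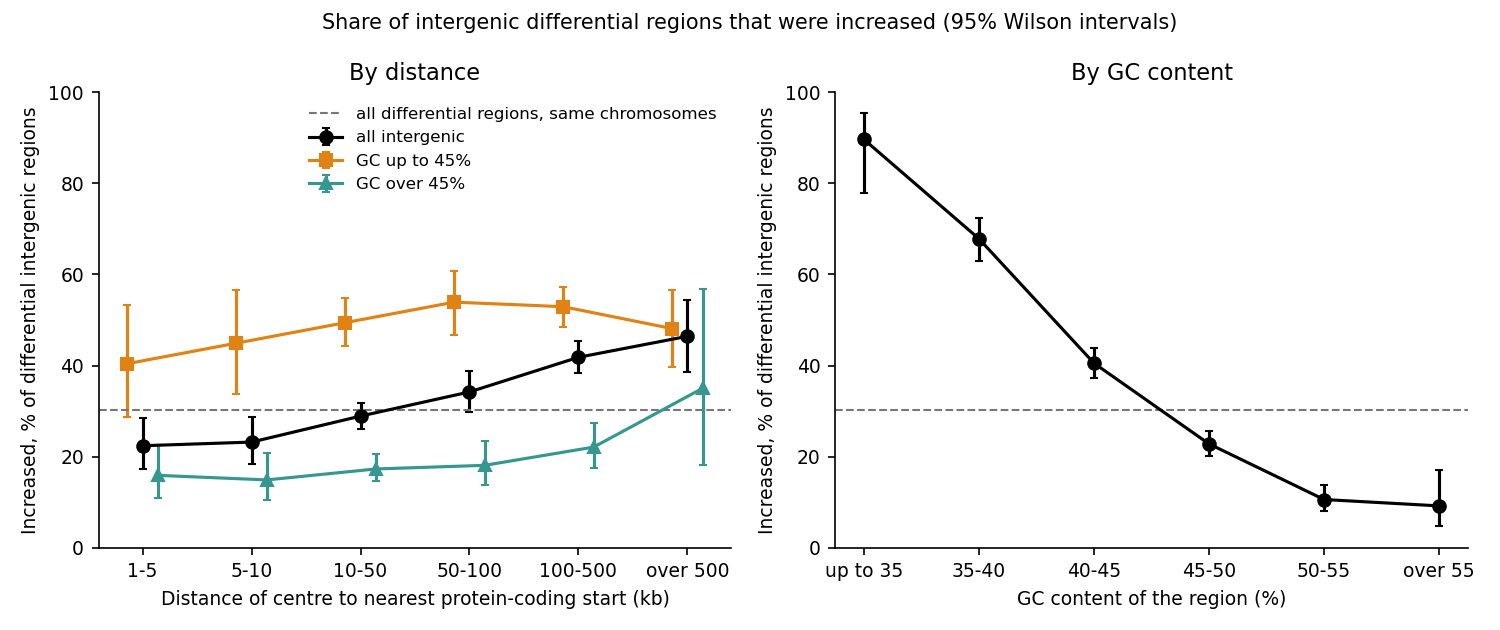
Share of intergenic differential regions that were increased, in percent with 95% Wilson intervals, by distance of the centre to the nearest protein-coding start in kb (left) and by GC content in percent (right); the dashed line is the 30.2% of all differential regions on the same 16 chromosomes. The share rose from 22.4% to 46.4% with distance over all regions, ran from 40.4% to 48.1% at up to 45% GC, and fell from 89.6% to 9.2% with GC content.

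The low GC content held on every chromosome. The median was 42.1% (41.7 to 42.6) for increased and 46.9% (46.7 to 47.3) for decreased intergenic regions, and it was lower for the increased regions on 16 of 16 chromosomes. It ranged from 40.5% on chromosome 2 to 44.4% on chromosome 19 for increased regions, and from 43.8% on the X chromosome to 48.7% on chromosome 14 for decreased ones. Background intergenic windows had a median of 40.6%, below that of the increased regions on 15 chromosomes, so the increased regions sat between the decreased regions and the background. The median distance was longer for increased than for decreased regions on 14 of 16 chromosomes, the exceptions being chromosome 18 (50.8 against 58.9 kb) and the X chromosome (62.1 against 79.0 kb). Increased regions inside gene bodies had nearly the same GC content as the intergenic ones, 41.9% (41.7 to 42.3, n = 1141), and increased regions within 1 kb of a start had 46.4% (45.5 to 47.0, n = 312). The ratio of observed to expected CpG was 0.167 (0.16 to 0.179) in the increased and 0.147 (0.143 to 0.151) in the decreased intergenic regions, and it exceeded 0.6, a level typical of CpG islands, in 11 increased (1.22%) and 2 decreased regions (0.109%). The soft-masked share, which marks repeats, had a median of 15.4% in the increased and 15.5% in the decreased regions, about the same, and 29.6% in the background windows.

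Regions were counted on each chromosome. Chromosome 1 held 101 of the increased intergenic regions, chromosome 3 held 96, chromosome 13 held 79 and chromosome 18 held 77. Chromosome 14 held 22 and chromosome 17 held 26. Per Mb of chromosome, the number was highest on chromosomes 18 (0.849), 13 (0.656) and 19 (0.619). It was 0.517 on chromosome 1 and lowest on chromosome 14 (0.176). Increased regions outnumbered decreased ones between genes on chromosomes 18 (77 against 58), 19 (38 against 32) and X (33 against 31). Their shares were 57.0% (48.6 to 65.1), 54.3% (42.7 to 65.4) and 51.6% (39.6 to 63.4), with intervals that reached below an even split. Over differential regions of every class on these chromosomes, the increased shares were 44.9%, 38.7% and 53.8%. On chromosome 11 the share was lowest, with 34 increased and 206 decreased regions (14.2%, 10.3 to 19.1). Over differential regions of every class there it was 16.2%, inside that interval.

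**Figure D2:**
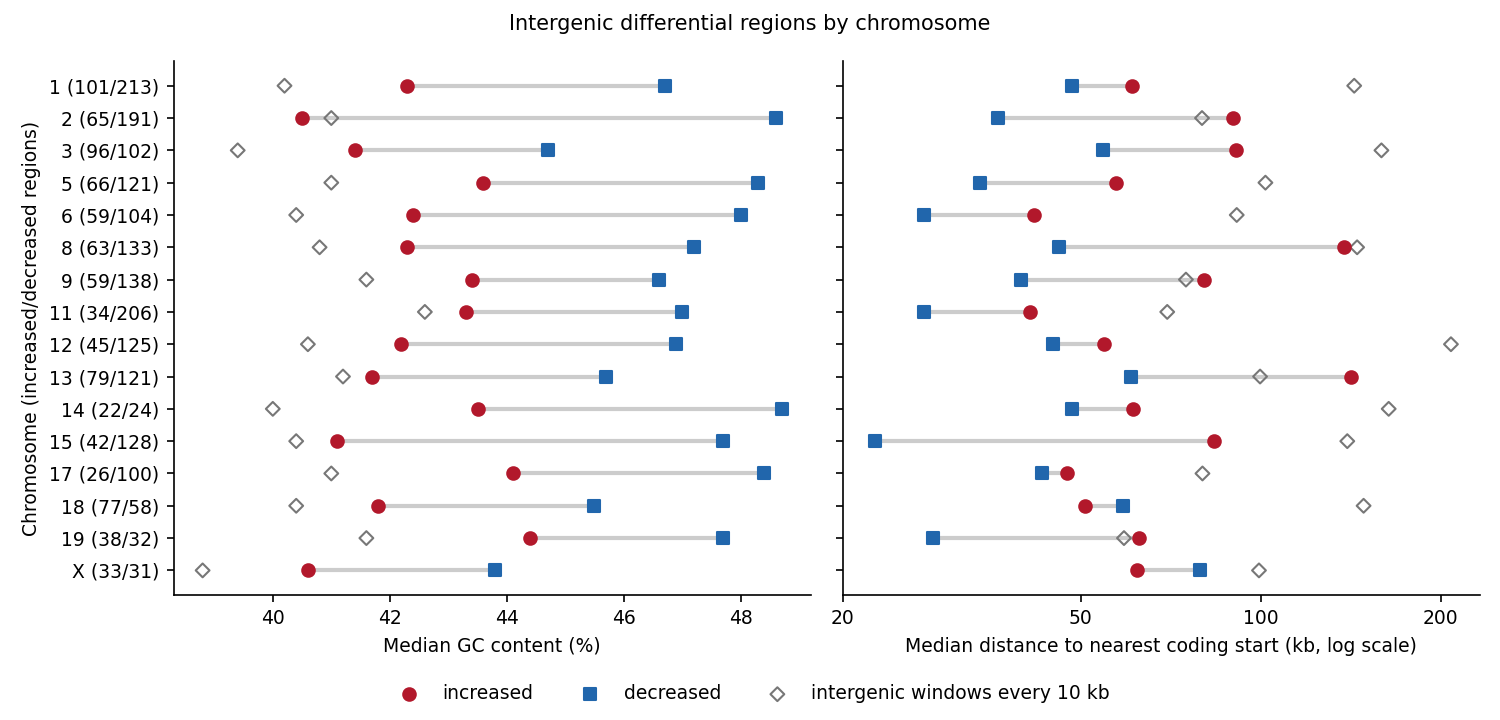
Median GC content in percent (left) and median distance to the nearest protein-coding start in kb on a log scale (right) of increased and decreased intergenic regions and of intergenic background windows, for each of the 16 chromosomes with the numbers of regions in brackets. The increased median lies below the decreased one for GC content on all 16 chromosomes and above it for distance on 14.

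The surroundings of the increased regions were mostly non-coding genes. The nearest start of any gene was protein-coding for 288 of them (31.8%), a processed pseudogene, which is a copy of an mRNA inserted elsewhere in the genome, for 247 (27.3%) and a lincRNA for 175 (19.3%). For decreased intergenic regions these shares were 39.9%, 19% and 21.3%. The increased regions lay upstream of the nearest coding gene in 530 cases (58.6%, 55.3 to 61.7) and downstream in 375, close to the 60.1% upstream among decreased regions. The flanking coding genes pointed the same way around 474 regions (52.4%), away from each other around 234 (25.9%) and toward each other around 197 (21.8%). The nearest coding start belonged to a flanking gene for 895 of 905 regions (98.9%).

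Increased regions were more scattered than decreased ones. Another increased region of any class lay within 50 kb of 269 members (29.7%, 26.8 to 32.8), whereas 56.5% of decreased intergenic regions had another decreased region that near. The lists held 2358 increased and 5445 decreased regions on these chromosomes, and this difference in number moves with the spacing. A region of the opposite direction lay within 50 kb of 136 increased (15%, 12.8 to 17.5) and 169 decreased (9.25%, 8.01 to 10.7) intergenic regions. Members no more than 50 kb apart formed 780 runs, of which 689 were single regions, 70 held 2 regions and 21 held 3 or more. In all, 216 regions (23.9%) belonged to a run of 2 or more.

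The members were assigned to genes by the nearest protein-coding start. Distances to a gene are to its nearest transcript start, which can lie inside the gene where it has several. They fell to 679 genes, 4.07% of the 16698 coding genes on these chromosomes, and 532 of these genes (78.4%) had a single region. Decreased intergenic regions fell to 1227 genes (7.35%), and 139 genes had both kinds, which was 20.5% of the first set and 11.3% of the second. A gene could collect regions by position alone, since the gene-free sequence beside a gene sets how much of the genome counts as nearest to it. Summed over both sides, that sequence had a median of 346 kb for the 679 genes and 48.4 kb for all coding genes. The share of genes with an increased region rose with it, from 2 of 2246 genes (0.089%) at up to 10 kb to 3.68% at 50 to 200 kb, 9.31% at 200 to 500 kb and 25.5% of 592 genes over 1000 kb. For decreased regions the share was 0.935% in the first class and 24.5% in the last. The shares stood apart in the first class and were close in the last.

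**Figure D3:**
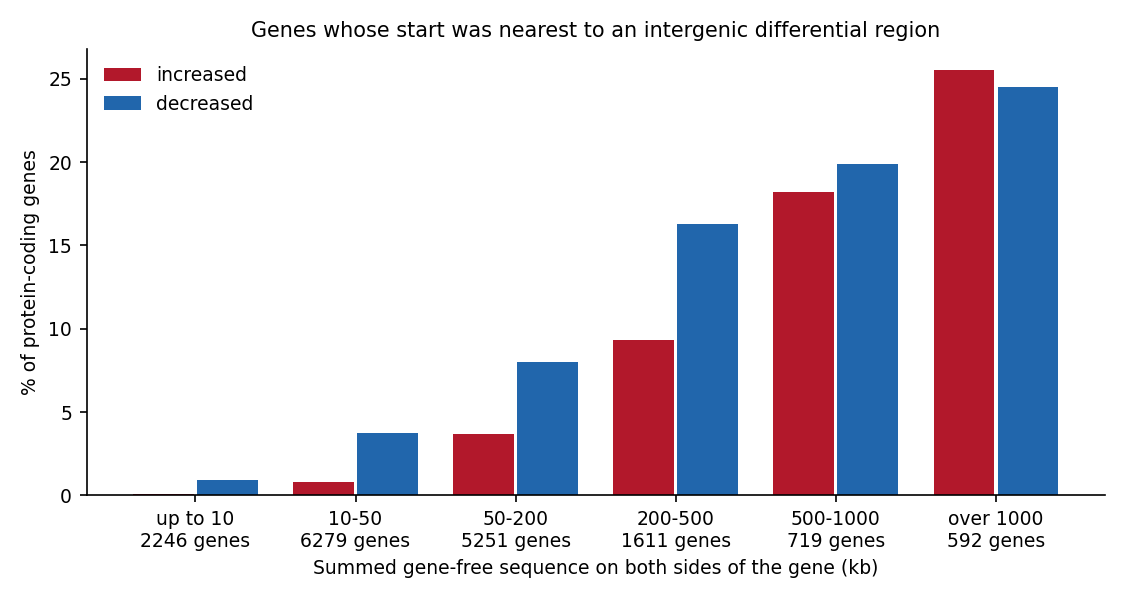
Percent of protein-coding genes whose start was nearest to at least 1 increased or decreased intergenic region, by the summed gene-free sequence on both sides of the gene in kb, with the number of genes in each class. Both shares rise across the classes, from 0.089% and 0.935% to 25.5% and 24.5%.

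Nt5e, Cpeb2 and Inhba had 6 increased intergenic regions each, the highest number for any gene. Nt5e encodes CD73, the cell-surface enzyme that makes adenosine from AMP. Its 6 regions lay upstream, between 80.2 and 136 kb from the start, on chromosome 9 from 88190292 to 88247204, and included 1 of 4198 bp at chr9:88196862-88201059, the third widest of all members. Nt5e was also nearest to 2 decreased intergenic regions, 1 of them inside the same span, and to 3 decreased regions in gene bodies. Cpeb2, which codes for a protein that binds the cytoplasmic polyadenylation element of mRNAs, had 5 regions upstream, at 91.1, 119, 151, 154 and 347 kb, and 1 downstream at 114 kb. AP-1 letters stood in 3 of them, the region at 347 kb holding both matches printed above. No decreased region was nearest to Cpeb2, and an increased region lay within 1 kb of a start.

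Inhba encodes the subunit that pairs to form activin A, a secreted ligand that restrains muscle growth. All 6 of its regions lay downstream, between Inhba and Sugct on chromosome 13, at 39.6, 162, 205, 370, 655 and 689 kb from the start, and 4 of them had the shortest width. Their GC content lay between 34.9% and 38.5%, and AP-1 was matched in 1, TEAD in 2, the E-box in 3 and MEF2 in 2. As with Cpeb2, no decreased region was nearest to Inhba and 1 increased region was promoter-proximal. The E-box and AP-1 letters printed for Inhba stand in the region at 162 kb.

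Rasa1, which encodes a GTPase-activating protein for Ras, had 5 regions upstream at 70.3, 110, 141, 149 and 273 kb, and the first 4 formed a run of 80.1 kb that also enclosed 1 decreased region. The widest of these, at 141 kb, measured 3019 bp. Sox11 and Sox9 encode transcription factors of the SOX family with roles in progenitor cells and cartilage, respectively. The 5 Sox11 regions lay upstream at 1.34, 10.2, 110, 149 and 208 kb, and 5 decreased intergenic regions were nearest to the same start, at 14.7 to 586 kb. Sox9 lies in a gene desert, with 3 increased regions upstream at 518, 543 and 699 kb and 2 downstream at 135 and 197 kb, and no decreased region was nearest to it.

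Adgrl2 and Adgrl4 encode adhesion G protein-coupled receptors and flank the same gene-free stretch of chromosome 3. Adgrl2 had 4 regions upstream at 243 to 887 kb and 1 downstream at 856 kb, and Adgrl4 had 5 upstream, 3 of them between 51.6 and 54.3 kb from the start. Of the 9 regions between these genes, none held TEAD letters in its central 500 bp and 1 held AP-1. Eipr1, which acts in endosome transport, had 4 regions packed into 19.5 kb. They lay 254 to 272 kb downstream of its nearest transcript start, which is inside the gene. March11, a membrane-bound ubiquitin ligase gene, had 4 upstream at 1.67, 41.1, 80.1 and 82.0 kb. Neither of these genes was nearest to a decreased region of any class.

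**Figure D4:**
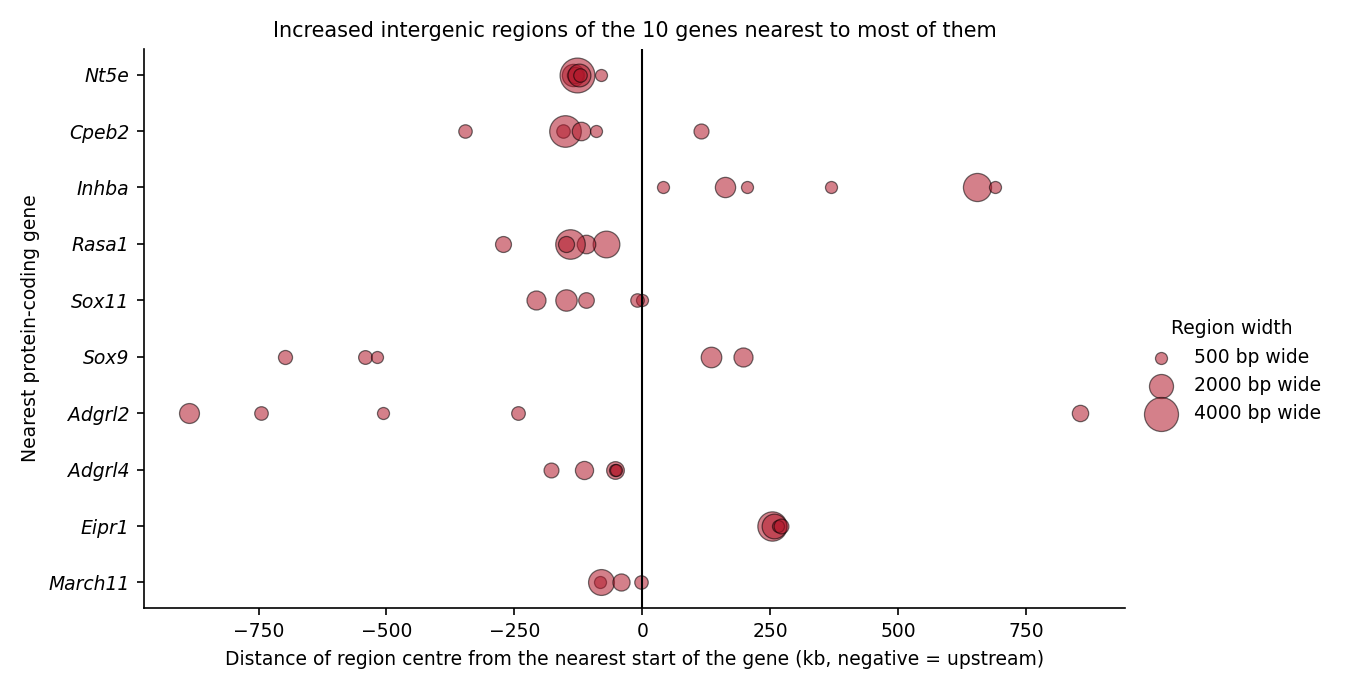
Position of each increased intergenic region relative to the nearest start of its gene, in kb with negative values upstream, for the 10 genes with the most such regions; circle area is proportional to region width. Regions of Nt5e, Rasa1, Sox11, Adgrl4 and March11 are all upstream, and those of Inhba and Eipr1 are all downstream.

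The members occupied 637 gene-free intervals between coding genes. Of these, 484 held 1 member, 153 held 2 or more and 17 held 5 or more, and 166 (26.1%) also held a decreased region. The interval with the most was the 2447 kb between Adgrl2 and Adgrl4, with 9 increased and 0 decreased regions. The 596 kb between Tbx18, a T-box transcription factor gene, and Nt5e held 7 increased and 2 decreased regions. The other three of the first 5 held 6 increased and 0 decreased regions each: 826 kb between Inhba and Sugct, 1368 kb between Lrriq3 and Negr1, which encodes a neuronal adhesion protein, and 610 kb between Ppp2r3a, a regulatory subunit gene of a protein phosphatase, and 9630041A04Rik. Among runs, that of Nt5e held the most regions, 6 over 56.9 kb. It was followed by 5 regions over 62.2 kb between Cpsf2, which encodes a cleavage and polyadenylation factor, and Slc24a4, a sodium-calcium exchanger gene, and by the runs of Rasa1, Eipr1 and Cpeb2 with 4 regions each.

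The widest member, of 5759 bp at chrX:126771732-126777490, lay 41.3 kb downstream of the start of 4932411N23Rik. It stood apart in composition, with 26.6% GC and 50.2% of its bases soft-masked, and an increased region lay 964 bp away. The next widest were 4882 bp at chr6:107048388-107053269, 251 kb upstream of Crbn, which encodes the ubiquitin ligase receptor cereblon, and the Nt5e region named above. They were followed by 3948 bp at chr1:112783906-112787853, 921 kb upstream of Dsel, an epimerase gene of dermatan sulfate, and 3702 bp at chr13:52276972-52280673, 252 kb downstream of Diras2, a gene for a small GTPase. All but the first were made of sequence with 39.3% to 47.1% GC. In all, 230 regions (25.4%) were at least 1000 bp wide and 53 (5.86%) at least 2000 bp.

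The most remote member lay 2066 kb from a coding start, downstream of Olfm4 at chr14:82065552-82066052, and its own 501 bp were 51.3% soft-masked. The next were at 1875 kb from Efna5, the gene of an ephrin ligand, and 1818 kb from Nudt12, a nucleotide hydrolase gene, which lay 173623 bp from each other within a single interval of chromosome 17, then at 1607 kb from Acvr2a, a receptor for activins, and 1602 kb from Pabpc4l. Repeat content was high in the last, with 93.2% of its bases masked. The members nearest to a coding start lay upstream of Slc19a2, a thiamine transporter gene, at 1.03 kb, Tlk1 at 1.09 kb, Trim59 at 1.09 kb, Otud4 at 1.12 kb and Rps6ka2 at 1.2 kb. The rule turned at 1 kb from any start. Just inside it were the Slc19a2, Tlk1 and Trim59 regions at 1027, 1089 and 1092 bp, and just outside it were regions at 994 bp from the pseudogene Gm28660, 972 bp from Pmfbp1 and 947 bp from Vamp4. A total of 66 increased regions outside gene bodies were left out by that limit.

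Genes with intergenic regions of both directions were led by Sox11, with 5 increased and 5 decreased. Camk1g, a calcium/calmodulin-dependent kinase gene, had 1 increased region at 610 kb and 8 decreased ones at 47.7 to 428 kb. Nt5e had 6 increased and 2 decreased. Igfbp3, the gene of a binding protein for insulin-like growth factors, had 1 increased at 567 kb and 7 decreased at 3.46 to 581 kb, and Adgrl2 had 5 increased and 2 decreased. For Camk1g the increased region lay outside the span of the decreased ones, and for Nt5e the decreased ones, at 34.4 and 102 kb, lay within or nearer than the increased ones.

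Among lists of genes by function, the secreted growth and signalling factors had 9 of 80 members nearest to an increased intergenic region (11.2%) and 12 nearest to a decreased one (15%). For all coding genes the shares were the 4.07% and 7.35% given above, but the members of this list had a median of 195 kb of gene-free sequence beside them, against 48.4 kb. Besides Inhba, they included Pdgfd, a platelet-derived growth factor, with 2 regions upstream at 151 and 369 kb, Dkk1, an inhibitor of Wnt signalling, with 1 region 98.7 kb downstream, and Wnt16. Developmental transcription factors had 16 of 95 (16.8%) against 26 (27.4%), with a median of 331 kb beside them. After Sox11 and Sox9 came Gata3, with 3 regions 93.5, 190 and 1107 kb downstream, and the homeobox gene Irx1, with 2 regions at 310 and 343 kb downstream, 1 of them 2788 bp wide. Decreased intergenic regions were also nearest to Gata3 (2) and Irx1 (1). In both lists decreased regions reached more members than increased ones did, as they did over all coding genes.

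The lists of muscle genes had few members. Regulators of myogenesis had 3 of 23 nearest to an increased intergenic region (13.0%) and 6 to a decreased one (26.1%). For all coding genes these shares were 4.07% and 7.35%, but the myogenic regulators had a median of 141 kb of gene-free sequence, against 48.4 kb. Mef2c, which encodes a transcription factor of muscle differentiation, had 4 regions, all upstream, at 266, 466, 614 and 658 kb, and no decreased region. Tcf4, an E-protein gene, had 3 increased and 4 decreased intergenic regions, and Id4, an inhibitor of E-proteins, had 1 increased region at 391 kb. Sarcomere genes had 5 of 45 in each direction (11.1%). The median of gene-free sequence was 34.5 kb over this list, which does not give the length beside the 5 genes reached. Myh3, the embryonic myosin heavy chain gene, had a region of 3680 bp joined from 3 peaks at chr11:67104065-67107744, 27.6 kb downstream of its start. In the same cluster of myosin genes, Myh2, the gene of a fast oxidative isoform, had 1 increased region 45.7 kb upstream and 1 decreased region at 24.1 kb. The increased regions of Myh3 and Myh2 lay 16975 bp apart, between these genes. Myl1, a fast light chain gene, had 1 increased region 30.6 kb upstream. Myom2, a gene of the M band, had 1 at 423 kb downstream.

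Genes of the extracellular matrix had 9 of 60 in each direction (15%), beside 4.07% and 7.35% of all coding genes. Their median of gene-free sequence was 123 kb, against 48.4 kb for all coding genes. Col3a1, the gene of type III collagen, had 3 increased and 0 decreased intergenic regions, at 11.8 and 295 kb upstream and 16.4 kb downstream. Thbs2, Fbln1 and Postn, which encode the matrix proteins thrombospondin 2, fibulin 1 and periostin, had 1 increased region each, at 29.9, 31.9 and 98.6 kb. Axon guidance genes had 9 of 56 (16.1%) against 12 (21.4%), with a median of 133 kb of gene-free sequence beside them. The ephrin ligand genes Efna5 and Efnb2, the ephrin receptor gene Epha4 and Rgmb had 2 increased regions each, those of Efnb2 lying 1190 and 1433 kb downstream. Decreased intergenic regions were nearest to Rgmb (3), Efna5 (1) and Epha4 (1), and to Efnb2 in 0 cases. Cadherins and protocadherins had 7 of 31 (22.6%) against 8 (25.8%), and theirs was by far the longest gene-free sequence, with a median of 2848 kb, near the class over 1000 kb in which 25.5% of all genes had an increased region. Cdh11 and Pcdh1 had 2 increased regions and 1 decreased region each, and the decreased one of Cdh11, at 59.8 kb, was nearer than its increased ones. Cdh18 had 1 increased and 2 decreased, and Pcdh7 had 1 and 0.

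Genes of prostaglandin synthesis and response had 4 of 15 with an increased intergenic region (26.7%) and 3 with a decreased one (20.0%). For all coding genes these shares were 4.07% and 7.35%. They were Ptgs2, which encodes cyclooxygenase 2, Hpgd, which encodes the enzyme that inactivates prostaglandins, the phospholipase gene Pla2g4a and the receptor gene Ptger4. Ptgs2 had 3 regions, at 56.7 kb upstream and at 30.6 and 53.5 kb downstream, the last 3572 bp wide, and Hpgd had 3, at 71.6 kb upstream and 32.9 and 70.7 kb downstream. Pla2g4a lies beside Ptgs2 on chromosome 1 and had 1 intergenic region, 285 kb downstream, while 12 increased regions inside gene bodies had its start as the nearest coding one. No decreased region of any class was nearest to Ptgs2 or Pla2g4a. Hpgd had 1 decreased intergenic region at 21.1 kb, nearer than its increased ones, and Ptger4 had 1 increased at 437 kb and 1 decreased at 400 kb. With 15 genes in the list, these counts were small, and Ptgs2 and Pla2g4a share 1 locus. The list had a median of 196 kb of gene-free sequence, against 48.4 kb for all coding genes.

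Nuclear receptors and their coregulators had 4 of 41 (9.76%) against 5 (12.2%), beside 4.07% and 7.35% of all coding genes. Their median of gene-free sequence was 157 kb, against 48.4 kb for all coding genes. Nr5a2, which encodes an orphan receptor, had 2 increased regions, at 127 kb downstream and 395 kb upstream, and 1 decreased one at 438 kb. Ppargc1a encodes PGC-1α, the coactivator of mitochondrial biogenesis that RIP140 counters on shared receptors. It had 2 increased regions, 70.6 and 97.3 kb upstream, and 4 decreased intergenic regions from 203 kb to 513 kb. Rorb had 1 increased region at 108 kb and Pparg had 1 at 44.9 kb, with AP-1 and TEAD letters in the latter. Cytokines and chemokines had 1 of 36, the B-cell chemoattractant gene Cxcl13 (2.78%), against 3 (8.33%), and both counts were near the shares of all coding genes. Genes that encode AP-1 and TEAD factors and their partners had 0 of 20 with an increased intergenic region, which allows a share of up to 15% when set at 3 counts of the total in place of a Wilson bound, and 3 with a decreased one.

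The study overlapped genes near increased H3K27ac with RNA changes in muscle and named 12 of them as examples in its text, and the longer overlap was not used here. Of these examples, 8 lay on the chromosomes kept, 1 (Wnt16) was nearest to an increased intergenic region and 1 (Unc13c) to a decreased one, each 12.5%, beside the 4.07% and 7.35% of all coding genes. The H3K27ac side of that overlap came from these samples, so the examples are no independent evidence. Wnt16 encodes a secreted ligand of the Wnt family, and its region of 982 bp at chr6:22282843-22283824, printed in part above, lay 4.89 kb upstream of the start, between Cped1 and Wnt16. An E-box and a RUNX match stood in its central 500 bp, and AP-1, TEAD and MEF2 were not matched there. Besides the overlap, the study reported raised Wnt16 expression in KO myotubes. It also reported that tagged RIP140, overexpressed in a myotube line, occupied the H3K27ac region of Wnt16. The other seven had no increased region between genes. Increased regions nearest to Acsl1, Stat3 and Unc13c (1 each) and Esm1 (2) lay inside gene bodies, that of Bdnf lay within 1 kb of a start, and Fgfbp1 and Epas1 had none in any class. These counts rest on the nearest protein-coding start. The study assigned peaks to genes with the annotation of HOMER, which was not rerun here, so the assignments can differ. Near Esm1, which encodes an endothelial proteoglycan, the closest member lay 47028 bp away and was nearer to Gzmk.

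The central 500 bp of the regions were searched for consensus sequences on both strands. AP-1 letters stood in 175 increased intergenic regions (19.3%, 16.9 to 22), in 270 decreased ones (14.8%, 13.2 to 16.5), in 14% of all differential regions on these chromosomes and in 7.44% of background intergenic windows. TEAD letters stood in 166 increased regions (18.3%, 16 to 21), in 253 decreased ones (13.8%, 12.3 to 15.5), in 15.3% of all differential regions and in 11.8% of windows. The share was higher in increased than in decreased regions on 13 of 16 chromosomes for AP-1 and on 12 for TEAD. Both sets of letters stood together in 33 increased regions (3.65%) and 44 decreased ones (2.41%). Over the whole region in place of its centre, the shares with AP-1 were close, at 26.6% and 25.9%, and those with TEAD were 28.3% and 26.0%, and decreased regions were wider.

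The E-box went the other way. It stood in 282 increased (31.2%, 28.2 to 34.3) and 702 decreased intergenic regions (38.4%, 36.2 to 40.7), and in 35% of all differential regions and 15.1% of windows. Inside gene bodies it stood in 28.0% of increased and 37.1% of decreased regions. The letters CAGCTG are themselves rich in G and C. Within classes of GC content the shares in increased and decreased regions were 22.7% and 21.2% at up to 40% GC, 30.5% and 34.4% at 40 to 45%, 39.5% and 36.0% at 45 to 50%, and 42.1% and 50.4% above. MEF2, an AT-rich consensus, stood in 107 increased (11.8%, 9.88 to 14.1) and 99 decreased regions (5.42%, 4.47 to 6.55), but in 12.3% of windows, and its increased share was above the decreased one in each GC class. These shares were 19.9% and 17.0% at up to 40% GC, 9.43% and 5.54% at 40 to 45%, 6.36% and 4.98% at 45 to 50%, and 6.58% and 2.27% above. The MEF2 intervals overlapped in every class. In windows of the same classes the MEF2 shares were 17.5%, 10.9%, 4.23% and 1.55%. Inside gene bodies MEF2 stood in 14.4% of increased and 5.38% of decreased regions. For AP-1 the increased share was above the decreased one in each GC class, at 19.9% against 15.2%, 20.4% against 15.1%, 15.9% against 15.5% and 22.4% against 13.4%, and the intervals overlapped in every class. For TEAD the shares were 14.4% against 19.4% at up to 40% GC, 21.4% against 13.7% at 40 to 45%, 20.0% against 12.9% at 45 to 50% and 15.8% against 13.4% above, so that the order in the first class was the reverse of the others.

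Matches were counted by distance from the centre of each region out to 5 kb. AP-1 letters in the increased set numbered 0.427 per kb within 250 bp of the centre and 0.179 per kb at 2 to 5 kb, a ratio of 2.39, and in the decreased set 0.33 and 0.195 per kb, a ratio of 1.69. TEAD letters numbered 0.396 and 0.26 per kb, a ratio of 1.52, against 1.17 in the decreased set. The E-box rose toward the centre by nearly the same ratio in both sets, 1.89 and 1.81, from a lower level in the increased one (0.411 against 0.539 per kb at 2 to 5 kb). MEF2 letters were level around increased regions, with a ratio of 1.07, and fewer at the centre of decreased ones, with a ratio of 0.666.

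**Figure D5:**
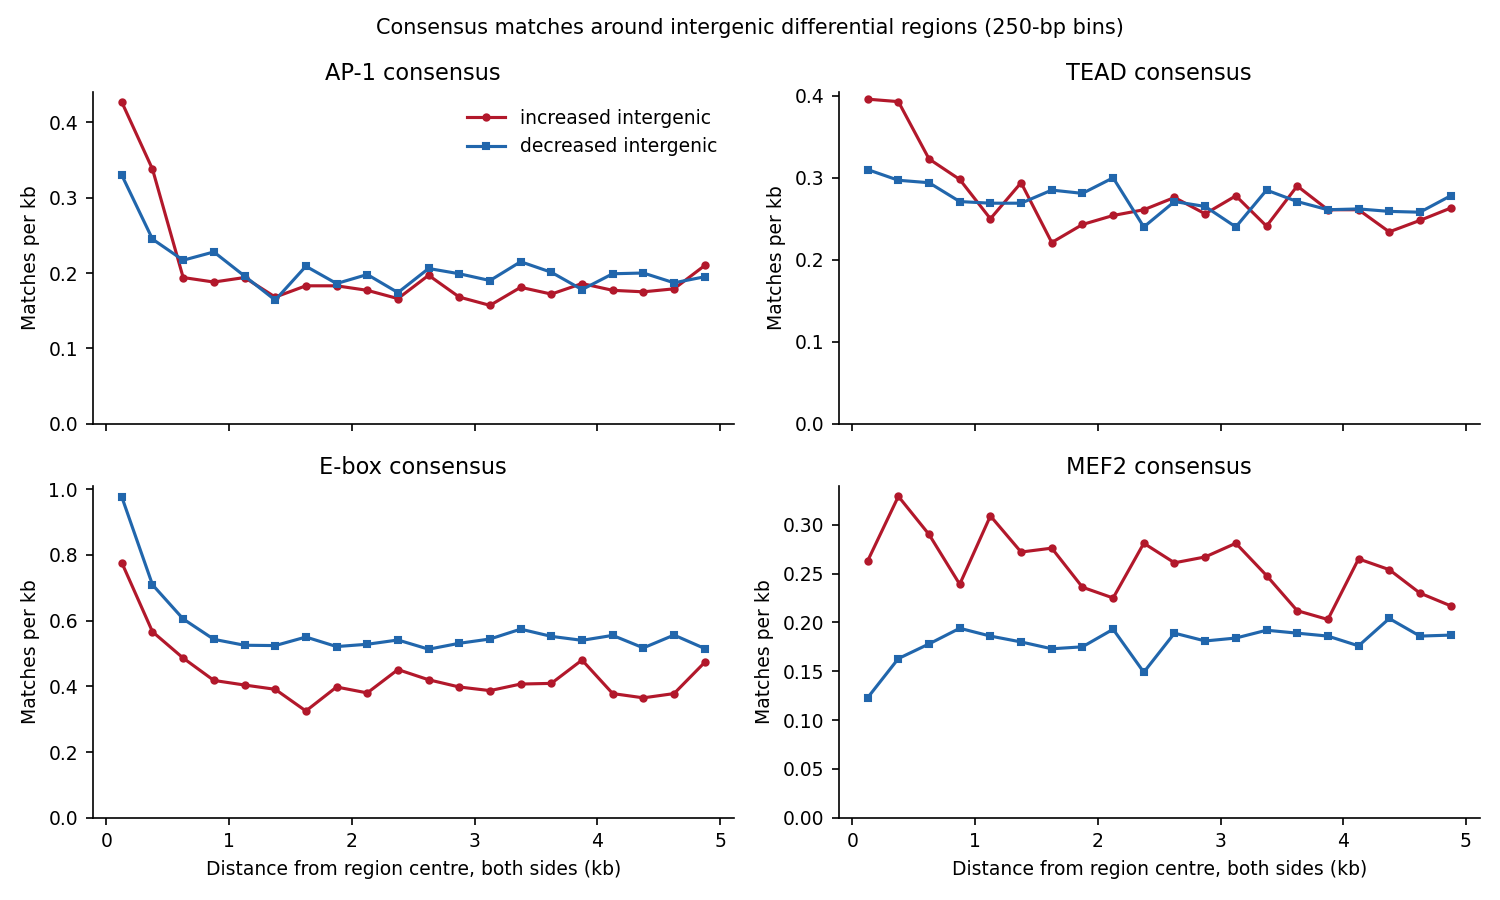
Matches per kb of the AP-1, TEAD, E-box and MEF2 consensus in bins of 250 bp by distance from the region centre in kb, both sides summed, for the 905 increased and 1827 decreased intergenic regions. AP-1 and TEAD rise highest at the centre of increased regions (0.427 and 0.396 per kb), the E-box rises in both sets, and MEF2 stays level in the increased set.

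Sites of receptors that recruit RIP140 were searched the same way. The estrogen-related receptor consensus TCAAGGTCA stood in 13 increased (1.44%, 0.841 to 2.44) and 29 decreased regions (1.59%, 1.11 to 2.27), and in 0.967% of windows. The PPAR direct repeat, with up to 2 mismatches, stood in 64 increased (7.07%, 5.58 to 8.93) and 169 decreased regions (9.25%, 8.01 to 10.7), and in 5.4% of windows. RUNX letters stood in 21.1% of increased and 21.7% of decreased regions, and in 16.4% of windows. The GABPA consensus CCGGAAGT stood in 1 and 5 regions (0.11% and 0.274%), and in 0.213% of windows. The SRF consensus stood in 24 increased regions (2.65%), in 2.57% of decreased ones and in 3.13% of windows. Those of NFI, the glucocorticoid receptor and CTCF stood in 2, 3 and 1 increased regions (0.221%, 0.331% and 0.11%). Their shares were 0.109%, 0.657% and 0.274% in decreased regions, and 0.0199%, 0.302% and 0.227% in windows. None of AP-1, TEAD, E-box and MEF2 was matched in 368 increased regions (40.7%), 762 decreased ones (41.7%) and 60.6% of windows. A match is a run of letters and no evidence of binding, and its absence says only that these letters were not in the window.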

How the data were processed

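H3K27ac and IgG CUT&RUN libraries were made from Nrip1KO and Ctrl myotubes, with 2 samples per group. The processed data were 2 lists of regions in mm10, deposited by the authors as increased and decreased, whose score was constant in every region and so carries no size of change. Per the labels and methods, reads were aligned with BWA-MEM2 (2.2.1) and regions were called with HOMER (4.11) as broad peaks at a 2-fold cutoff. The use made of replicates and IgG libraries in calling is not given in the sources used here. The labels name Abcam as supplier of the H3K27ac antibody and the methods name Cell Signaling. Nothing in the labels says that the 2 samples of a group came from separate cultures.

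Regions were annotated here with GENCODE M21 by the position of their centre, and sequence was read from GRCm38.p6. Composition was taken over whole regions and motif letters over the central 500 bp on both strands. Background windows of 500 bp were placed every 10 kb. The Wilson and order-statistic intervals are at the 95% level. The nearest gene was that with the nearest protein-coding transcript start. Named genes were those the study singled out, the 10 with the most increased intergenic regions (ties by summed width), those of the 5 widest, farthest and nearest regions and of the regions at the 1 kb limit, those of the 5 intervals and 5 runs with the most regions, the 5 with the most regions of both directions, and up to 4 per list. Other genes were named as interval neighbours or, like the window near Insig2, from their sequence matches. Members, gene lists and motifs were chosen with earlier results of these data known. The functions were tested on simulated data. Python 3.11.15, numpy 2.4.6, scipy 1.17.1, pysam 0.24.0 and matplotlib 3.10.9 were used. One increased region on the Y chromosome and 1 decreased region on an unplaced sequence were left out. Alternatives were a minimum width of 1000 bp, all chromosomes, autosomes only, joining of regions within 10 kb, protein-coding genes alone as annotation, a limit of 2.5 kb, every base in place of the centre, and motif search over whole regions. An alternative without regions over 50% soft-masked was chosen after seeing the data.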

Additional observations from a re-analysis of the deposited data

How the results depend on the processing

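Of 92 values recomputed under alternatives for 11 results, 75 stayed within their interval or within 1.5 times a count. The median distance ran from 71230 to 75339 bp and the median GC content from 42.1% to 42.4%, and for the 8 measures compared with decreased regions the order was the same under every alternative run. With a minimum width of 1000 bp, 230 regions were left, the increased share among intergenic regions was 25.4%, 20.4% had an increased neighbour within 50 kb, and AP-1, TEAD and the E-box stood in 22.2%, 21.7% and 37.0% (37.2% for the E-box in decreased regions). With all chromosomes there were 1407 regions, a share of 37.0% and neighbours for 41.3%. With neighbouring regions joined, the share was 35.1% and 21% had a neighbour. Over whole regions AP-1, TEAD and the E-box stood in 26.6%, 28.3% and 40.7% (decreased 25.9%, 26.0% and 56.2%). The causes were not tested. No paired analysis was possible because the lists hold no value per library, and no replicate could be left out for the same reason. Depth, fold and error per region are unknown, and assignment by nearest start does not show which gene a region regulates.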
